A study of Mus musculus with 8 samples.

Results

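Olig1, Olig2, Sox10, Myrf, Nkx2-2, Nkx6-2, Sox6, Sox8 and Tcf7l2 are transcription factors known for their work in the oligodendrocyte lineage, and their UMIs were followed from the progenitor to the mature cell in the prefrontal cortex (PFC) and striatum of Setd1a+/- and WT mice. The 9 genes were taken by symbol from the 31053 genes of the count matrices, and all 9 were found. A UMI (unique molecular identifier) marks 1 captured RNA molecule in 1 cell. The single-cell libraries numbered 8, with 2 WT and 2 Setd1a+/- libraries in each tissue, and each pooled the tissue of 2 mice. All mice were male and on C57BL/6N, and the labels give an age of 8 to 10 weeks, while the methods give an older one. The Setd1a+/- mice carried 1 copy of Setd1a with a small frameshift deletion in an exon just before those for the SET domain, from CRISPR-Cas9 founders backcrossed to C57BL/6N, and the WT mice were littermates. The deletion was in every cell type, so a difference within the lineage cannot be assigned to Setd1a in these cells alone. The labels call the striatal samples NAc, while the methods and the design text describe dorsal and ventral striatum, and "striatum" is used here.

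Oligodendrocytes, which wrap axons in myelin, form from oligodendrocyte progenitor cells (OPC) that still divide in the adult brain. A progenitor that leaves the cycle becomes a newly formed oligodendrocyte, a short-lived premyelinating state, and then a mature myelinating one. Olig2 and Sox10 hold the lineage identity throughout, Nkx2-2 and Tcf7l2 work around the onset of differentiation, Sox6 and the related Sox5 restrain maturation in the progenitor, and Myrf, a membrane-bound factor that cleaves itself, switches on the myelin genes. Setd1a is the catalytic subunit of a complex that methylates histone H3 at lysine 4.

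The genes lay on 6 chromosomes of GRCm38 in the GENCODE vM21 annotation. Olig2 (chr16:91225457-91228677) and Olig1 (chr16:91269772-91271933), both basic helix-loop-helix factors, were on the plus strand with 41094 bases between them. Sox6 (chr7:115470872-116038796) and Nkx6-2 (chr7:139579376-139582797) were on the minus strand of the chromosome that also carries Setd1a (chr7:127776670-127800122). Myrf (chr19:10208272-10240748, minus) and Tcf7l2 (chr19:55741820-55933654, plus) shared a chromosome too. Nkx2-2 was at chr2:147177546-147194243 (minus), Sox10 at chr15:79154908-79165240 (minus) and Sox8 at chr17:25565892-25570686 (minus). Nkx6-2 overlaps Inpp5a on the other strand, and Tcf7l2 overlaps the predicted gene Ppnr on its own strand, as Setd1a does the predicted gene Gm49388, so reads in the shared stretches of these 2 could have been dropped or split.

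For 3 of the genes, 1 for each stage at which a level was highest, the 250 bases upstream of the RefSeq start in GRCm38.p6 are shown side by side. The part of these bases in the progenitor, newly formed and mature patterns was not tested. They were searched on both strands for CANNTG, the E-box that OLIG factors and other basic helix-loop-helix proteins can bind, for ACAAAG or ACAATG, core words of SOX proteins, and for AAGTG, the core word of NKX2 factors. Capitals mark a SOX or NKX2 word.
Olig2, chr16:91225300-91225549, plus strand: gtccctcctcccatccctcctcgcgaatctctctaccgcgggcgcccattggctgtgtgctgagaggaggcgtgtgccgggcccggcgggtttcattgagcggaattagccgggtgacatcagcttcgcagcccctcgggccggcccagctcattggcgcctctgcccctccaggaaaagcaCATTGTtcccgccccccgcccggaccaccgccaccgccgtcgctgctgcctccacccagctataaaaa
Nkx2-2, chr2:147186403-147186652, minus strand: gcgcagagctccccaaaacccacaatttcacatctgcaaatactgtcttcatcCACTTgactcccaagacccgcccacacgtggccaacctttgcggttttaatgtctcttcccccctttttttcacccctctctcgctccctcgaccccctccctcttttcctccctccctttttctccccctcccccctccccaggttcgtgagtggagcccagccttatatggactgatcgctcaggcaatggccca
Nkx6-2, chr7:139582798-139583047, minus strand: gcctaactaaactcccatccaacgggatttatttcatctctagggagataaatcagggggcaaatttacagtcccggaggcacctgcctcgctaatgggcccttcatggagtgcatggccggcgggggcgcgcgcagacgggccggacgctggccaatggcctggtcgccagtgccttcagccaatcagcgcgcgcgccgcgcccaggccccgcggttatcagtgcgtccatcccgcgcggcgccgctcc
Olig2 held 1 SOX word, read here as its reverse complement, and no E-box. Nkx2-2 held 1 NKX2 word, read as its reverse complement and sharing bases with 1 of its 3 E-boxes, and no SOX word. Nkx6-2 held 1 E-box and neither other word. Of 32851 RefSeq mouse promoters of the same length, 66.2% held an E-box, 25.2% a SOX word and 40.7% an NKX2 word, so all 3 words are common. The GC content was 66.8% for Olig2, 56.4% for Nkx2-2 and 65.2% for Nkx6-2, against a median of 52.4% over all promoters. The start used for Nkx2-2 lay inside the GENCODE gene, and that for Olig2 lay downstream of the GENCODE start. RefSeq starts were found for 6 of the genes, with 6 starts for Sox6 and 2 for Tcf7l2. Sox8 was the other with 1 start, and promoters of Olig1, Sox10 and Myrf were not analysed here.

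The authors' annotation placed 7277 of 23687 cells in the lineage. The PFC held 1337 OPC, 295 newly formed and 1694 mature oligodendrocytes, and the striatum 1441, 165 and 2345. Setd1a+/- replicate 2 of the striatum held only 114 OPC, 22 newly formed and 67 mature cells, so its values rest on few UMIs. The libraries held 15154268 to 26277553 UMIs. The median cell had 1351 to 1919 UMIs as an OPC, 1828 to 3970.5 as a newly formed and 1888 to 2190.5 as a mature oligodendrocyte, over the 8 libraries. Any 2 libraries shared at most 24 cell barcodes. The stage names held up on their markers in both tissues: 7 of 8 progenitor markers were highest in OPC, 8 of 8 newly formed markers in newly formed cells and 10 of 10 mature markers in mature cells, the exception being Gpr17, which was highest in newly formed cells. Setd1a itself was sparse in the lineage: per library of OPC, in the order WT replicates 1 and 2 and Setd1a+/- replicates 1 and 2, it stood at 10.5, 3.91, 5.92 and 5.36 CPM (its UMIs after every sum of cells is scaled to the same total) in the PFC from 7, 3, 3 and 2 UMIs, and at 13.9, 11.7, 7.71 and 6.17 CPM in the striatum from 11, 8, 6 and 1 UMIs. The genotype ranges overlapped in the PFC and did not in the striatum. Ranges without overlap were found for 27.1% of all genes in PFC OPC and 30.3% in striatal OPC. The Setd1a means of WT and Setd1a+/- newly formed cells were 7.44 and 1.95 CPM in the PFC and 8.13 and 11.5 in the striatum. For mature cells they were 6.05 and 1.99 CPM in the PFC and 10.3 and 5.72 in the striatum. The 3' ends counted here lie outside the deletion, so these values do not check the genotype labels.

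Levels are given below as CPM per library in that same order of 4 libraries, with the mean ± SD over the 4 where one is given. Reads were counted at the 3' end of each RNA and capture differs between genes, so levels are compared between cells and not between genes. Differences between stages are a description with no test, because the authors drew the clusters from the genes of the same cells. Droplets with at most 100 UMIs, which hold mostly free RNA, had 18.3 to 35.2 CPM of Olig1 in the PFC libraries and 12.5 to 29.1 in the striatum, 13.0 to 28.8 of Sox10, 9.76 to 20.1 of Sox8 and at most 13.1 of any of the other genes.

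The OLIG pair and SOX10, which set and keep the lineage identity, were present at all 3 stages, and the OLIG pair was highest in OPC. Olig1 in OPC was 430.3, 319, 397 and 284 CPM in the PFC and 418.5, 400.2, 416.5 and 345 in the striatum. In newly formed cells it was 125, 179, 175.5 and 215 CPM in the PFC and 165, 222, 115 and 184 in the striatum, and in mature cells 167.5, 143, 214 and 120.0 in the PFC and 131, 106, 128 and 220.3 in the striatum. All 8 OPC libraries thus lay above all libraries of both later stages of their tissue, while the ranges of the later stages overlapped. Olig2 was 141, 146, 103 and 131 CPM in PFC OPC, 68.4, 66.3, 125 and 89.7 in newly formed cells and 22.0, 38.2, 31.9 and 44.3 in mature ones. In the striatum Olig2 was 155, 105, 132 and 117 CPM in OPC, 73.9, 84.7, 54.6 and 91.8 in newly formed cells and 21.3, 23.7, 20.1 and 18.9 in mature ones. Newly formed cells lay above mature cells in both tissues without overlap, and OPC above newly formed cells without overlap in the striatum alone. With cells thinned to 1000 UMIs, 1 of 4 PFC libraries had more Olig2 in mature than in newly formed cells (log2 ratios from -2.71 to 0.19). The log2 ratio of mature to newly formed cells was -1.33 ± 0.53 (SD, n = 4) in the PFC and -1.79 ± 0.34 in the striatum for Olig2, and -0.11 ± 0.58 and -0.25 ± 0.60 for Olig1.

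Sox10, a direct activator of myelin genes, had overlapping levels in the first 2 stages of both tissues. It was 222, 310.3, 126 and 287 CPM in PFC OPC, 223, 239.8, 140.4 and 341 in newly formed cells and 137, 187, 94.3 and 180.0 in mature ones. The log2 ratio of newly formed cells to OPC was 0.01 ± 0.27 (SD, n = 4), with 3 of 4 libraries above 0. At every stage both replicate 1 libraries of the PFC lay below both replicate 2 libraries, in WT and Setd1a+/- alike. Ranges that did not overlap between replicate numbers were common: they were found in the PFC for 3 of 7 of the factors tested in OPC (45.4% of all genes), 4 of 8 in newly formed cells (44.5%) and 5 of 8 in mature cells (47.5%), and in the striatum for 4 of 7 (40.8%), 4 of 8 (40.1%) and 3 of 8 (42.5%). In the striatum Sox10 was 313, 302, 355 and 413 CPM in OPC, 261, 212, 371.5 and 665 in newly formed cells and 193, 188, 187 and 227 in mature cells. The 665 CPM came from 29 UMIs in 22 cells of Setd1a+/- replicate 2. The striatal log2 ratio of newly formed cells to OPC was 0.00 ± 0.52 (SD, n = 4), from -0.51 to 0.69, with 2 of 4 libraries above 0. There the replicate numbers overlapped at every stage. OPC lay above mature cells in the striatum without overlap, and the PFC ranges overlapped.

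Nkx2-2, Tcf7l2, Sox8 and Sox6 had their highest mean level in newly formed cells in both tissues, with Sox6 close to its OPC level. The Sox6 ranges of newly formed cells and OPC overlapped in both tissues. In striatal WT replicate 2 the Sox6 level was slightly lower in newly formed cells than in OPC. Nkx2-2, a homeodomain repressor that relieves the block on differentiation, was 97.4, 73.0, 114.5 and 115 CPM in PFC OPC, 232, 265, 285 and 179 in newly formed cells and 40.0, 36.9, 25.5 and 24.3 in mature cells. The 3 ranges did not overlap. In the striatum it was 88.8, 65.7, 116 and 92.5 CPM in OPC, 170.5, 296, 218.5 and 115 in newly formed cells and 34.5, 66.9, 37.7 and 31.5 in mature cells, and neighbouring ranges overlapped. Within each of the 8 libraries the newly formed cells lay above the OPC and above the mature cells, but with cells thinned to 1000 UMIs they lay above the OPC in only 3 of 4 libraries of each tissue.

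Tcf7l2, which encodes the transcription factor that carries the Wnt signal with beta-catenin and that also drives oligodendrocyte differentiation, stood far higher in newly formed cells than on either side of them. It was 61.5, 61.3, 43.4 and 72.3 CPM in PFC OPC, 425.5, 495, 324 and 502 in newly formed cells and 17.4, 25.9, 20.4 and 22.9 in mature cells. In the striatum it was 52.0, 48.2, 59.1 and 55.5 CPM in OPC, 381, 392, 656 and 482 in newly formed cells and 28.2, 32.2, 29.96 and 12.6 in mature cells. No range overlapped with that of another stage in either tissue. The log2 ratio of newly formed cells to OPC was 2.85 ± 0.10 (SD, n = 4) in the PFC and 3.10 ± 0.26 in the striatum, and that of mature to newly formed cells was -4.27 ± 0.27 and -4.21 ± 0.73. With every cell thinned to 1000 UMIs, which weights cells equally, the first ratio was 1.83 ± 0.90 in the PFC and 2.86 ± 0.39 in the striatum, and the second -3.46 ± 0.61 and -3.99 ± 0.69.

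Sox8, a close relative of Sox10 in the SOXE group, followed a flatter course. It was 119.9, 89.96, 132 and 83.0 CPM in PFC OPC, 158, 143, 172 and 161 in newly formed cells and 60.9, 56.6, 65.0 and 64.3 in mature cells, with no overlap between stages. In the striatum it was 148, 108, 135 and 86.3 CPM in OPC, 176, 222, 218.5 and 161 in newly formed cells and 73.9, 112, 63.4 and 75.5 in mature cells, and the ranges of OPC and mature cells overlapped. Sox6, of the SOXD group, was instead lost from mature cells. It was 339, 246, 217 and 252 CPM in PFC OPC, 348, 301, 319.8 and 305 in newly formed cells and 4.64, 1.23, 3.82 and 0 in mature cells. In the striatum it was 172.5, 140.2, 188 and 136 CPM in OPC, 227, 138, 224 and 138 in newly formed cells and 0.53, 1.69, 1.28 and 0 in mature cells. The mature values lay below the 4.83 to 12.2 CPM of Sox6 in near-empty droplets.

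Myrf and Nkx6-2 belonged to the late part of the order. Myrf was 12.0, 15.7, 19.7 and 10.7 CPM in PFC OPC, 125, 112, 101 and 116.5 in newly formed cells and 130.4, 119, 107 and 101 in mature cells. In the striatum it was 5.07, 11.7, 11.6 and 6.17 CPM in OPC, 142, 106, 131 and 115 in newly formed cells and 135.5, 121, 145.5 and 101 in mature cells. OPC lay below both later stages without overlap, and the later stages overlapped, with a log2 ratio of mature to newly formed cells of 0.01 ± 0.14 (SD, n = 4) in the PFC and 0.02 ± 0.18 in the striatum. Nkx6-2, a homeodomain factor of myelinating cells, was 94.5, 97.3, 80.3 and 116 CPM in PFC mature cells and 70.7, 127, 58.6 and 138.5 in striatal ones. In newly formed cells it was 2.98, 0, 7.80 and 8.97 CPM in the PFC and 22.7, 21.2, 5.46 and 22.95 in the striatum, and in OPC at most 1.30 CPM in the PFC and 6.17 in the striatum. Mature cells lay above newly formed cells without overlap, whereas Myrf was already at its mature level in newly formed cells.

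**Figure D1:**
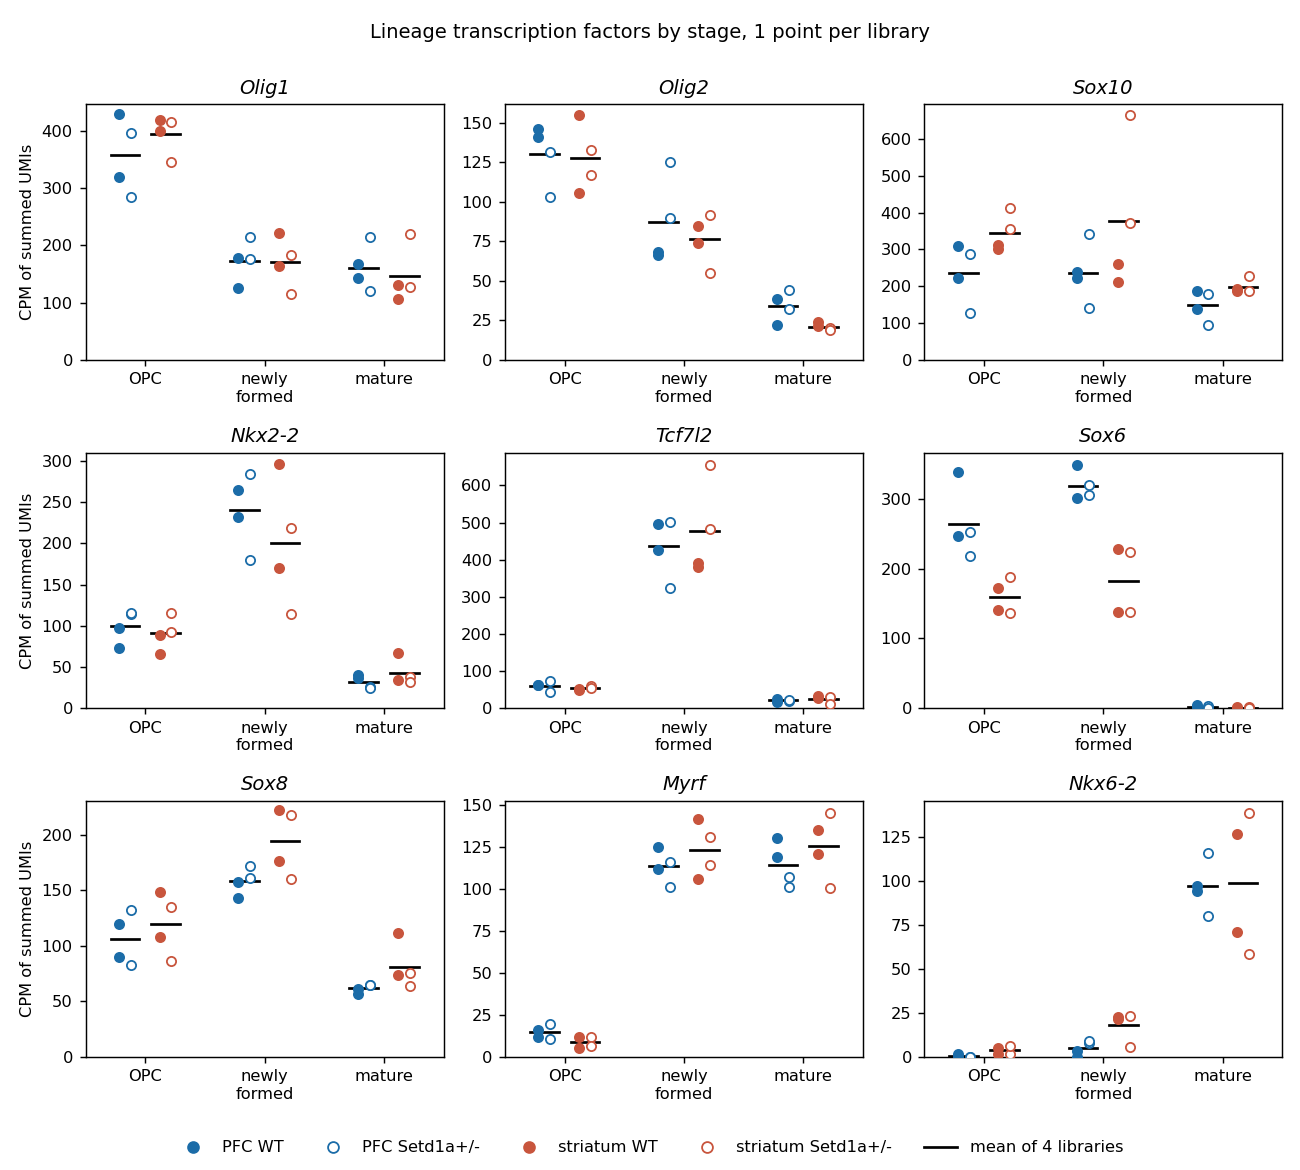
CPM of each of the 9 factors (y axis) in OPC, newly formed and mature oligodendrocytes (x axis), 1 point per library, with PFC and striatum in different colours and WT and Setd1a+/- as filled and open points. Tcf7l2 peaks in the newly formed cells at 324 to 656 CPM, Sox6 is at most 4.64 CPM in mature cells, and Nkx6-2 is above 58 CPM only there.

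Single cells carried few of these RNAs each. With every cell thinned to 1000 UMIs, 28.3% of PFC OPC had an Olig1 UMI on average over 4 libraries (44.3% unthinned), 30.3% of PFC newly formed cells a Sox6 UMI (56.2% unthinned) and 19.8% a Tcf7l2 UMI (49.3% unthinned). In PFC excitatory neurons, which should lack them, the thinned shares were 0.118% for Olig1, 0.0210% for Sox6 and 0.0210% for Tcf7l2, and the unthinned ones 0.692%, 0.229% and 0.0420%, at median depths of 5732 to 9178 UMIs per library. Cells without a single UMI of the 9 genes made up 7.99 to 19.7% of the OPC, 0 to 9.09% of the newly formed and 13.4 to 29.0% of the mature cells per library. The newly formed cells, which in 7 of 8 libraries had a higher median depth than the other stages, had a median of 3 or 4 of the 9 factors detected per cell in 7 of 8 libraries and 2 in striatal Setd1a+/- replicate 2.

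Within the newly formed cells, those with a Tcf7l2 UMI differed from the rest in some stage markers. In a second random thinning to 1000 UMIs per cell, 68 of 295 PFC cells and 50 of 165 striatal cells had 1 or more, against 59 and 51 in the thinning behind the shares above. Mag, a myelin glycoprotein gene, averaged 0.374 UMIs in PFC cells without and 1.26 in cells with a Tcf7l2 UMI, and 0.765 and 1.96 in the striatum. Enpp6, an enzyme gene that marks newly formed cells, averaged 1.13 and 1.96 UMIs in the PFC and 0.730 and 1.44 in the striatum. Both were higher in the cells with a Tcf7l2 UMI in all 8 libraries. Some libraries had few such cells, since striatal Setd1a+/- replicate 2 held 22 newly formed cells and striatal WT replicate 2 held 32. In that WT library Mag averaged 0.56 UMIs without and 0.714 with a Tcf7l2 UMI. Gpr17, a receptor gene of the committed progenitor, averaged 1.22 UMIs without and 0.897 with a Tcf7l2 UMI in the PFC and 1.40 and 1.00 in the striatum, and was higher with Tcf7l2 in 1 of 8 libraries. Neu4, a sialidase gene of the early newly formed cell, averaged 0.978 and 0.662 in the PFC and 0.939 and 0.700 in the striatum, and was higher with Tcf7l2 in 2 of 8 libraries. Bmp4 and Tns3, which like Enpp6 mark newly formed cells, differed less: Bmp4 averaged 0.678 without and 0.632 with a Tcf7l2 UMI in the PFC and 0.852 and 0.700 in the striatum (higher in 1 of 4 libraries of each), and Tns3 0.564 and 0.706 in the PFC (4 of 4) and 0.504 and 0.680 in the striatum (2 of 4). The other factors went either way: Sox8 was higher with a Tcf7l2 UMI in 1 of 8 libraries, Nkx2-2 in 1, Sox6 in 2, Olig1 in 3, Sox10 and Olig2 in 4 and Myrf in 5, at averages of at most 0.357 UMIs. The mature markers Mog and Opalin were sparse and gave no common direction: Mog averaged 0.154 UMIs without and 0.368 with a Tcf7l2 UMI in the PFC (higher in 3 of 4 libraries) and 0.0957 and 0.0600 in the striatum (1 of 4), and Opalin 0.0220 and 0.132 in the PFC (2 of 4) and 0.0609 and 0.0200 in the striatum (1 of 4). The cells with a Tcf7l2 UMI had been deeper before thinning, with a median of 3566 against 2689 UMIs in the PFC and 2916 against 2698 in the striatum. The part of depth in these differences was not tested.

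**Figure D2:**
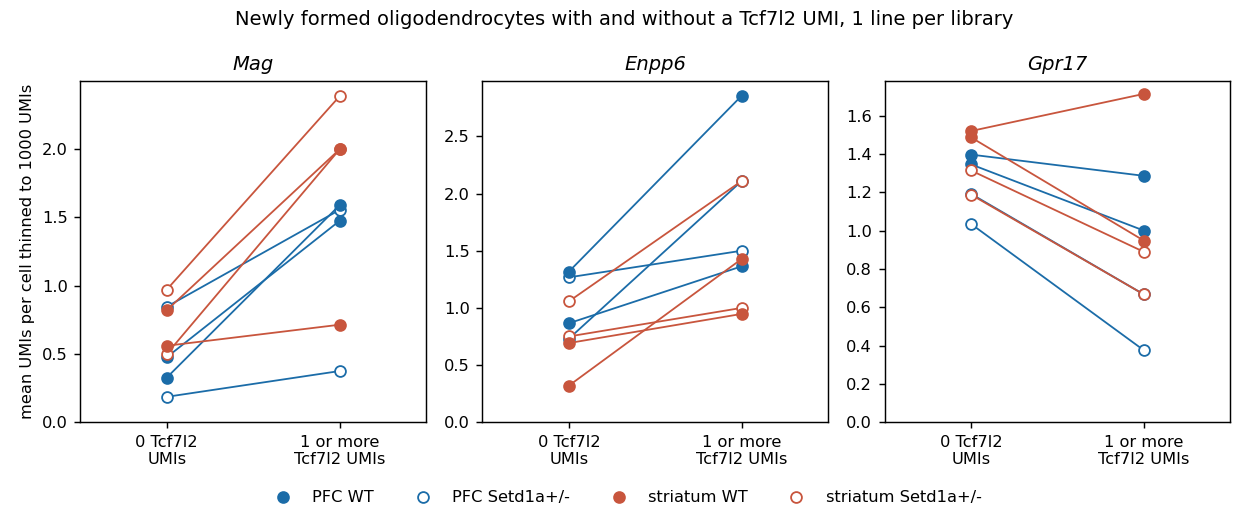
Mean UMIs per newly formed oligodendrocyte of Mag, Enpp6 and Gpr17 (y axis, 1 panel per gene, every cell thinned to 1000 UMIs) in cells without and with a Tcf7l2 UMI (x axis), with 1 line per library. The Mag and Enpp6 lines go up in all 8 libraries, and the Gpr17 line goes up in 1, WT replicate 2 of the striatum.

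Outside the lineage most of the 9 factors were within, near or below their range in near-empty droplets in most cell types. In PFC excitatory neurons the mean was 1.08 CPM for Olig1 and 0.414 for Sox10. Both lay below the droplet ranges of the PFC, 18.3 to 35.2 and 13.0 to 18.6 CPM. A level within a droplet range was therefore not shown to come from free RNA. The library ranges of Nkx2-2 in PFC mature cells (mean 31.7 CPM) and astrocytes (19.2) overlapped, as did those of Olig2 in PFC mature cells (34.1) and microglia (15.1). Within the lineage, the mean of Myrf in striatal OPC (8.62 CPM) lay within its range in near-empty droplets (3.60 to 10.1). The striatal OPC libraries still lay above those of endothelial cells (mean 2.16 CPM), the next type in the order of Myrf levels, without overlap. Myrf had no UMI in 554 PFC astrocytes, 1562 endothelial cells or 298 interneurons, which allows shares of up to 0.542%, 0.192% and 1.01% of cells with a UMI. Tcf7l2, Sox6 and Sox8 were the main exceptions. Tcf7l2 was 69.98, 121, 111 and 179 CPM in PFC astrocytes and 96.2, 89.7, 142 and 202 in striatal ones, above its OPC level on average, and 44.6 ± 8.73 (SD, n = 4) in PFC and 35.7 ± 4.19 in striatal endothelial cells. It had no UMI in 298 PFC interneurons, up to 1.01% of cells. Sox6, which is also needed by cortical interneurons, was 80.0, 59.8, 42.2 and 23.2 CPM in PFC interneurons and 22.7, 41.1, 24.6 and 33.9 in striatal ones, and it was also found in PFC astrocytes (45.7 ± 14.0), striatal astrocytes (39.9 ± 16.2) and striatal neural stem cells and neuroblasts (43.2 ± 15.7). Interneurons and astrocytes, the next in the order of Sox6 levels in the PFC, lay below OPC without overlap and overlapped each other. Sox8 was 36.8 ± 2.39 CPM in D2 and 31.4 ± 7.42 in D1 medium spiny neurons, against 16.3 to 20.1 in striatal near-empty droplets. It was 45.0 ± 22.9 in PFC astrocytes, against 9.76 to 13.4 in near-empty droplets of the PFC. The Sox8 mean in PFC excitatory neurons, 10.2 ± 2.88 CPM, lay within that PFC droplet range. Nkx6-2 had no UMI in the 554 PFC astrocytes, while it was 12.0, 14.3, 2.25 and 31.9 CPM in striatal astrocytes, from 7, 7, 2 and 3 UMIs. Nkx2-2 was 19.2 ± 14.5 CPM (SD, n = 4) in PFC astrocytes, against 4.78 to 8.54 in near-empty droplets of the PFC.

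**Figure D3:**
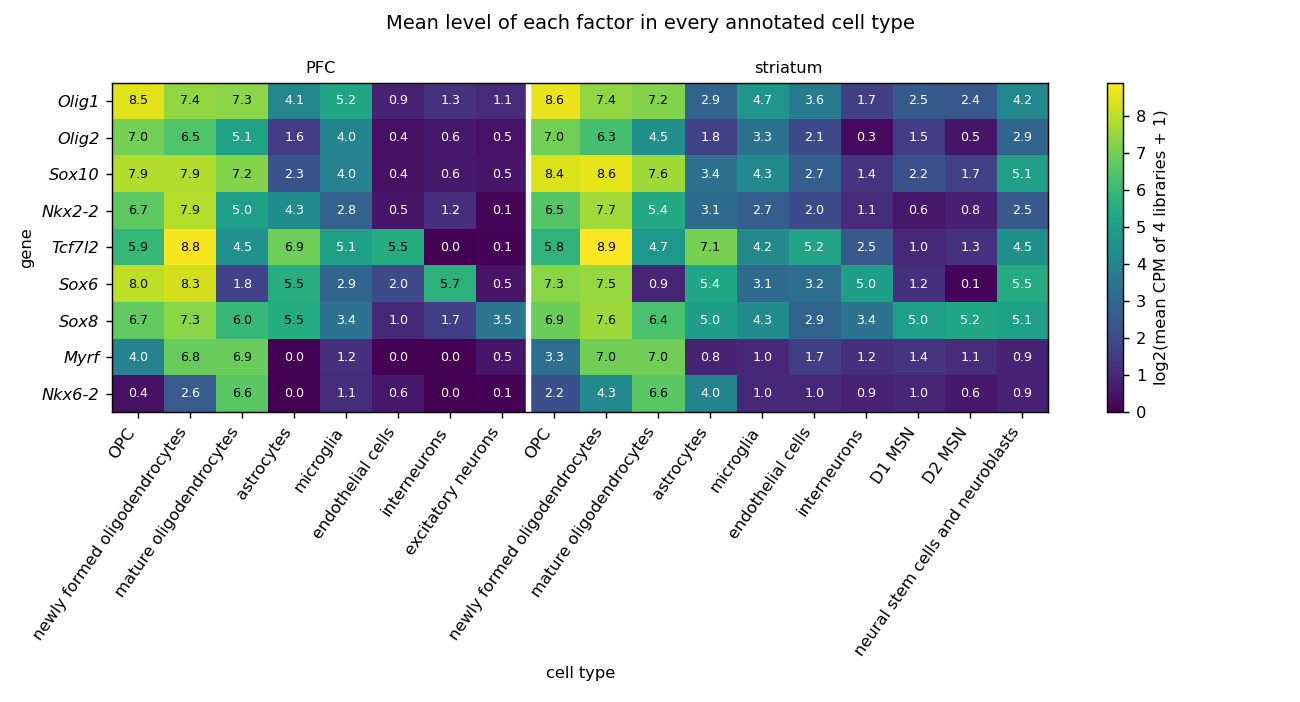
Mean CPM over 4 libraries (log2(CPM + 1) colour scale) of each of the 9 factors in the 8 annotated cell types of the PFC and the 10 of the striatum. Olig1, Olig2, Sox10, Nkx2-2, Sox8 and Myrf have higher means in each lineage stage than in any cell type outside the lineage in their tissue. Tcf7l2, Sox6 and Sox8 also reach astrocytes, Sox6 interneurons, and Sox8 medium spiny neurons.

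Each factor's nearest genes outside the 9, by their levels over the 18 groups of cell type and tissue, are given next. The groups share libraries, and 6 of the 18 are lineage stages, so these Pearson correlations of log2(CPM + 1) are a description. Gjc3, an oligodendrocyte connexin gene, was the nearest of these genes to Olig1 (r = 0.952), Olig2 (0.956) and Sox10 (0.973), with Papss1 and Matn4 next for Olig1, Snx1 and Snx22 for Olig2, and Prkcq and Papss1 for Sox10. Myrf was nearest to Fa2h (0.982), Serpind1 (0.973) and Ugt8a (0.970), of which Fa2h and Ugt8a make myelin lipids. Nkx2-2 was nearest to Bcas1 (0.967), a gene of early myelinating cells, then Col9a3 (0.959) and Sirt2 (0.958). Tcf7l2 was nearest to Tns3 (0.951), a marker of newly formed cells, then Atp6v0e (0.936) and S100a13 (0.932). Nkx6-2 had Dnajb2 (0.956), A230009B12Rik (0.920) and Ly6g6f (0.906), Sox6 had Tspan6 (0.913), Tmx1 (0.909) and Maged2 (0.909), and Sox8 had Hsd17b10 (0.917) and Psmd9 (0.897). Olig1, Olig2 and Sox10 had correlations with each other of 0.971 for Olig1 and Olig2, 0.965 for Olig1 and Sox10 and 0.968 for Olig2 and Sox10, and Sox6 and Nkx6-2 had a correlation of -0.07.

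The comparison of Setd1a+/- with WT cells asked whether loss of 1 copy of Setd1a moves these factors within a stage. None was called in either tissue (edgeR quasi-likelihood test, Benjamini-Hochberg FDR under 0.05, with a fold change over 1.5 for PFC cells and over 2 for striatal cells). The factors that passed the filter on low counts gave 46 tests, with 22 estimates above and 24 below 0, standard errors of 0.20 to 0.58 on the log2 scale and a lowest FDR of 0.987. Of the 46, 2 had an unadjusted p under 0.05, and DESeq2 called 0 of the factors. Over all genes 0% were called at every stage in both tissues, while DESeq2 called 1 in the PFC and 0 in the striatum. By edgeR it was 0 of 17829 tests in the PFC, with 326 at an unadjusted p under 0.05. In the striatum it was 0 of 18470 tests, with 454 at such a p. With same-numbered WT and Setd1a+/- libraries fitted as pairs, some of all genes were called in both tissues, but none of the factors. With 2 libraries per genotype, a change of the size of the factors' standard errors could not have been detected. Larger changes could also have been missed. Sox10 in striatal newly formed cells was not called at a log2 FC of 1.00 ± 0.34 (SE).

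The estimates with an unadjusted p under 0.05 were both in striatal newly formed cells. Sox10, at 261 and 212 CPM in WT and 371.5 and 665 in Setd1a+/- libraries, had a log2 FC of 1.00 ± 0.34 (SE, edgeR FDR = 0.987), which ran from 0.43 with every cell thinned to 1000 UMIs to 1.49 without Setd1a+/- replicate 1 (lowest FDR 0.0536) over 10 alternatives, and was 0.68 without Setd1a+/- replicate 2 with its 22 cells. Tcf7l2, at 381 and 392 CPM in WT and 656 and 482 in Setd1a+/- libraries, had a log2 FC of 0.65 ± 0.27 (SE, edgeR FDR = 0.999), which ran from 0.34 without Setd1a+/- replicate 1 to 0.82 without Setd1a+/- replicate 2 (lowest FDR 0.598). Neither gene passed the adjusted threshold. In the same cells the neuron markers summed to 202 to 2169 CPM over the striatal libraries. The 3 of them that were tested had a median log2 FC of Setd1a+/- over WT of -1.56, and 0 were called. The part of neuronal RNA in the Sox10 and Tcf7l2 estimates was not tested.

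Genotype ranges of CPM that did not overlap were about as common among the factors as among all genes tested. In the PFC this held for 2 of 7 factors in OPC (27.1% of all genes), 2 of 8 in newly formed cells (27.4%) and 3 of 8 in mature cells (26.2%). In the striatum it held for 3 of 7 (30.3%), 2 of 8 (30.7%) and 1 of 8 (30.7%).

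**Figure D4:**
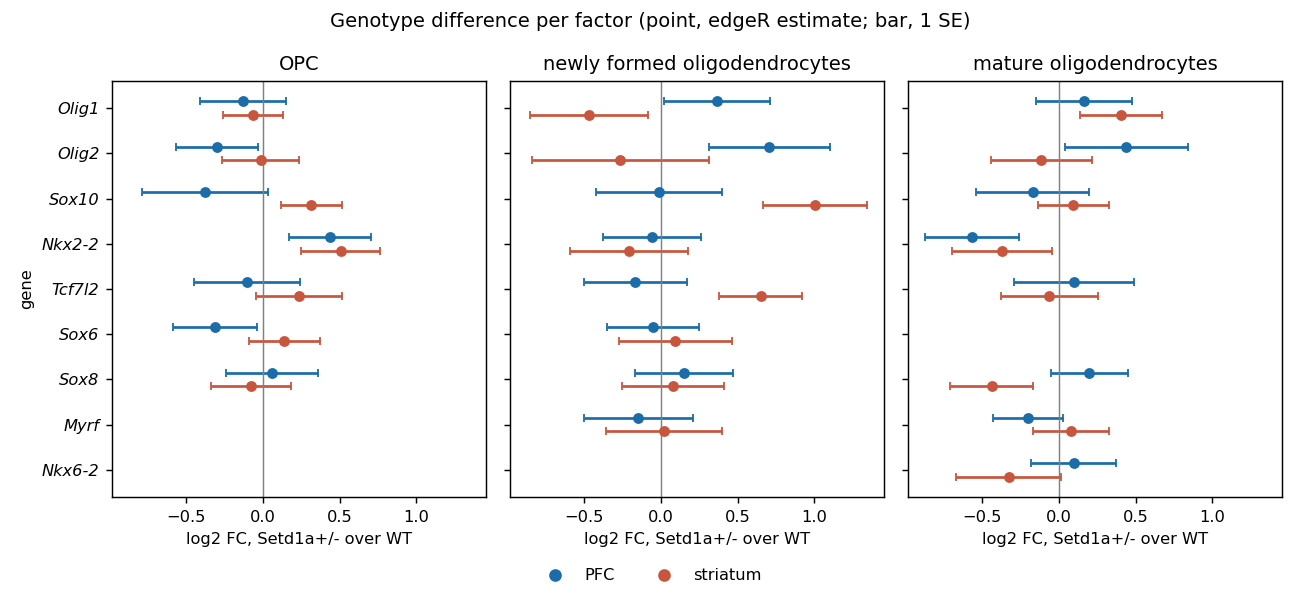
Log2 FC of Setd1a+/- over WT cells (x axis, edgeR estimate, bars 1 SE) for each factor tested (y axis) at each lineage stage in PFC and striatum. Of the 46 estimates, 22 lie above and 24 below 0, the largest estimate is Sox10 in striatal newly formed cells at 1.00, and none passes the FDR threshold.

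The genotype effect did not detectably differ between the tissues. The tissue by genotype term gave 24 tests of the factors, with 0 called, 0 at an unadjusted p under 0.05 and 0 called by DESeq2, at standard errors of 0.35 to 0.90. Over all genes 0% were called at each stage, which was 0 of 20220 tests with 398 at an unadjusted p under 0.05, and DESeq2 called 0. Sox10 in newly formed cells had the largest term, at 1.06 ± 0.59 (SE, edgeR FDR = 1.00).

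In other cell types 20 tests of the factors gave 0 calls by edgeR or DESeq2 and 4 (20%) at an unadjusted p under 0.05, while of 88325 tests of all genes 2011 (2.28%) had an unadjusted p under 0.05 and 4 (0.00453%) were called, all in D2 medium spiny neurons. Sox6 in PFC interneurons was 80.0 and 59.8 CPM in WT and 42.2 and 23.2 in Setd1a+/- libraries, a log2 FC of -1.02 ± 0.40 (SE, edgeR FDR = 1.00). Tcf7l2 in striatal astrocytes was 96.2 and 89.7 against 142 and 202 CPM, a log2 FC of 0.72 ± 0.31 (SE, edgeR FDR = 0.919) that was 0.42 with cells thinned to 1000 UMIs. Sox8 in D1 medium spiny neurons was 39.1 and 35.8 against 27.98 and 22.8 CPM (log2 FC -0.53 ± 0.19, SE, edgeR FDR = 1.00, and -0.29 with cells thinned). Olig1 in striatal endothelial cells, at 9.06 and 3.95 against 14.9 and 18.2 CPM, lay within or below the range of near-empty droplets. None of these 4 passed the adjusted threshold.

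Between the tissues Sox6 was the factor with the largest difference, and it was lower in the striatum at the 2 stages that express it. The edgeR test with genotype as a covariate called 0.158% of all genes in OPC (12 of 7612, 9 higher and 3 lower in the striatum), 0.0663% in newly formed cells (2 of 3015) and 2.70% in mature cells (187 of 6918, 93 higher and 94 lower), with the FDR under 0.05 and a fold change over 1.5. None of the factors was called in 23 tests, by edgeR or by DESeq2, and 4 (17.4%) had an unadjusted p under 0.05, beside 13.8% of all genes in OPC, 9.29% in newly formed and 17.1% in mature cells. Tissue and dissociation cannot be told apart, because the striatum was digested for longer.

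Sox6 in OPC was 339, 246, 217 and 252 CPM in the PFC and 172.5, 140.2, 188 and 136 in the striatum, and in newly formed cells 348, 301, 319.8 and 305 against 227, 138, 224 and 138. The tissues did not overlap at either stage. The log2 FC of striatum over PFC was -0.67 ± 0.18 (SE, edgeR FDR = 0.150) in OPC and -0.70 ± 0.23 (SE, FDR = 0.320) in newly formed cells, below the threshold of significance in both. In OPC the estimate ran from -0.88 to -0.55 and the FDR from 0.0536 to 0.450 over 15 alternatives. At 1000 UMIs per cell, the share of OPC with a Sox6 UMI was 26.3, 21.9, 19.9 and 21.4% in the PFC libraries and 16.9, 14.8, 18.0 and 14.0% in the striatal ones, also without overlap. In the same OPC the 5 astrocyte markers summed to 456 to 516 CPM in the PFC and 277 to 416.5 in the striatum, also without overlap, most of it from Slc1a3 (mean 378.5 and 228.5 CPM). None of the 5 was at 0, and of the 3 that were tested 0 were called. The median log2 FC of striatum over PFC of those 3 was 0.23, the opposite direction to the sum. The 8 progenitor markers leaned the same way as Sox6 in the median. Their median log2 FC was -0.39 in OPC, with 8 tested, and -0.63 in newly formed cells, with 5 tested, and 0 were called. In OPC they summed to 6744 to 10833 CPM in the PFC and 5308 to 6141 in the striatum, without overlap. In newly formed cells the sums overlapped. The part of either list in the Sox6 difference was not tested. Tissue ranges that did not overlap were found for 1 of 7 factors in OPC (8.25% of all genes), 1 of 8 in newly formed cells (4.68%) and 0 of 8 in mature cells (11.2%).

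Sox10 in OPC and Sox8 in mature cells, the others with an unadjusted p under 0.05, leaned the other way. Larger estimates than that of Sox8 in mature cells were those of Olig2 (log2 FC -0.55), Tcf7l2 (0.50) and Nkx2-2 (0.50). None of these was called. Sox10 in OPC had a mean of 236 ± 82.3 CPM (SD, n = 4) in the PFC and 346 ± 50.2 in the striatum, with a log2 FC of 0.55 ± 0.25 (SE, edgeR FDR = 0.339), and the ranges overlapped because PFC WT replicate 2 reached 310.3. With WT libraries alone the log2 FC was 0.21, and without PFC Setd1a+/- replicate 1 it was 0.28. Sox8 in mature cells had a mean of 61.7 ± 3.82 CPM in the PFC and 81.1 ± 21.1 in the striatum, with a log2 FC of 0.44 ± 0.20 (SE, edgeR FDR = 0.290) that was 0.24 without striatal WT replicate 2 and 0.71 with WT libraries alone. In the same mature cells the summed level of 6 microglia markers was 202 to 579 CPM in the PFC libraries and 37.2 to 50.4 in the striatal ones, and 5 of the 5 tested were called lower in the striatum. The neuron markers summed to 1180 to 1369 CPM in PFC OPC and 1443 to 1784 in striatal OPC, most of it from Meg3 (mean 949 and 1317 CPM). In mature cells they summed to 220.5 to 718 CPM in the PFC and 327 to 1391 in the striatum, and the ranges overlapped. The 5 neuron markers tested in mature cells had a median log2 FC of striatum over PFC of 1.41, and 0 were called. The part of either list in the tissue differences of the factors was not tested.

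**Figure D5:**
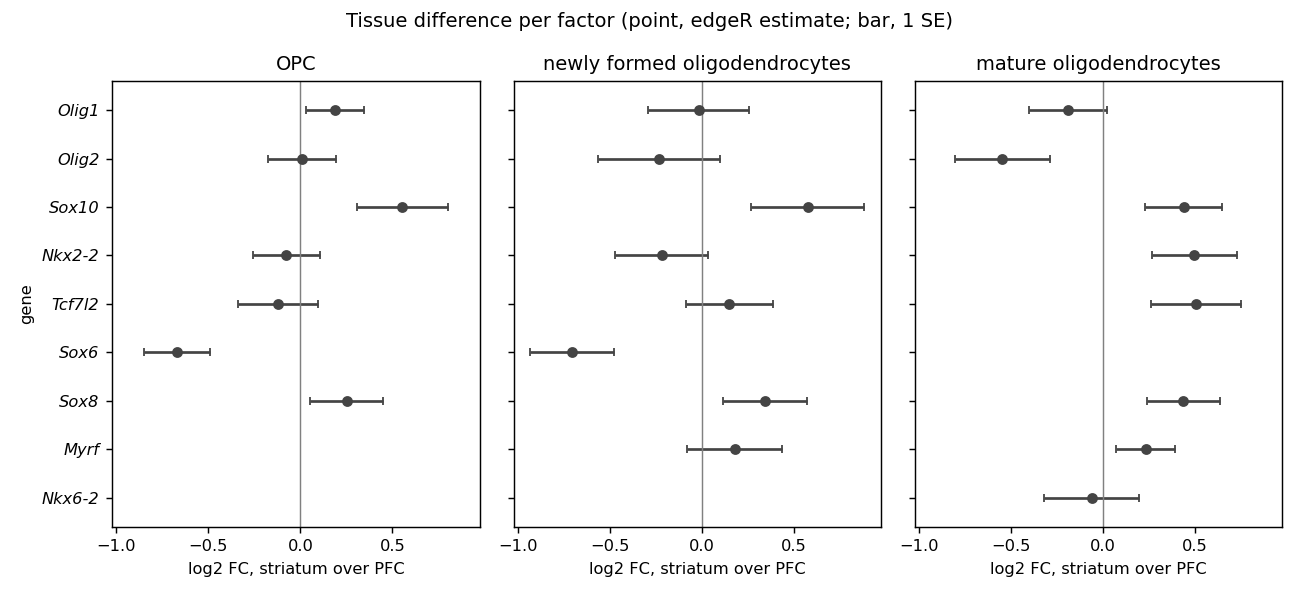
Log2 FC of striatum over PFC (x axis, edgeR estimate with genotype as a covariate, bars 1 SE) for each factor tested (y axis) in OPC, newly formed and mature oligodendrocytes. Sox6 lies at -0.67 and -0.70 at the 2 stages where it was tested, and Sox10 lies between 0.43 and 0.58 at all 3.

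Other regulators of the same steps were counted beside the factors. The lists held 13 inhibitors of differentiation, 27 other lineage regulators and 13 Wnt signalling genes, of which 10, 24 and 8 were tested between tissues in OPC, 1, 13 and 4 in newly formed and 3, 21 and 8 in mature cells. None of those tested was called by edgeR between genotypes, where 0% of all genes were, or between tissues, where 0.158%, 0.0663% and 2.70% of all genes were at the 3 stages. Among the inhibitors, Id2, which sequesters helix-loop-helix partners, was 284 ± 59.2 CPM (SD, n = 4) in PFC OPC and 17.9 ± 13.7 in newly formed cells, Sox11 129 ± 10.6 and 34.0 ± 9.42, and Sox4 117 ± 17.4 and 346 ± 145. Gpr37, a receptor gene that delays maturation, was 790 ± 143 in PFC and 484 ± 51.0 in striatal mature cells. Of the lineage regulators, Tcf4, a helix-loop-helix partner of OLIG2, was 391 ± 36.9, 388 ± 29.1 and 319 ± 36.5 CPM over the 3 stages of the PFC, Zeb2, which acts against BMP and Wnt signals, 142 ± 22.0, 384 ± 90.9 and 434 ± 47.5, Nfia 261 ± 13.9, 138 ± 30.3 and 136 ± 24.1, and Nfix 111 ± 10.1, 95.0 ± 25.5 and 224 ± 52.6. Of the Wnt signalling genes, Ctnnb1 (beta-catenin) was 57.5 ± 15.8, 105 ± 28.1 and 38.7 ± 7.87, Gsk3b 78.1 ± 17.2, 86.2 ± 4.56 and 48.0 ± 4.82, Apc 91.3 ± 29.8, 53.4 ± 32.4 and 112 ± 38.3, and Tle4, a corepressor, 44.4 ± 13.3, 86.8 ± 45.7 and 26.6 ± 10.9 CPM. In OPC the median log2 FC of striatum over PFC was 0.01 for 10 inhibitors tested, -0.30 for 24 lineage regulators and -0.19 for 8 Wnt signalling genes, beside -0.02 over all genes.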

How the data were processed

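The authors aligned and counted the reads of the 10x 3' libraries with Cell Ranger 3.0.2, and the deposited values are raw UMI counts per gene and droplet barcode; the submitters' processing notes name mm10. Barcodes, gene names and a table of annotated cells were deposited beside them; this table gives other information, namely each cell's library and cell type, from Seurat 3.2.0 clusters that the authors merged by hand after removing cells with under 800 genes or over 10% mitochondrial UMIs. Doublet removal was not stated, and none was done here. Per-cell totals in the annotation were not used.

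UMIs were summed over the annotated cells of a type in each library, with at least 10 cells in every library. Libraries were the replicates. Sums were tested with edgeR 4.0.16 in R 4.3.3 (quasi-likelihood, TMM, filterByExpr at a minimum of 10 counts, Benjamini-Hochberg over all genes of a fit), and the code was tested on simulated data. DESeq2 1.42.0, library size alone, no filter, a replicate block, cells thinned to 1000 UMIs, the top 5% of cells by UMIs left out, each library left out and, for tissue, WT libraries alone were alternatives. Stage ratios are of CPM + 1, and were also taken without mitochondrial and ribosomal protein genes. The methods use no block. They pair a WT with a mutant sample in every biological replicate, and same-numbered libraries were taken as pairs. The difference of replicate 1 from replicate 2 correlated across genes between WT and Setd1a+/- at 0.34, 0.34 and 0.44 in PFC OPC, newly formed and mature cells and at 0.15, 0.18 and 0.16 in the striatum.

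The 9 factors, the lists and the tests were chosen with earlier results of these data known. Beside the factors and Setd1a, the text names the 3 genes most like each factor among those reaching 50 CPM in a group (1 of them is not reported here), and from other lists the genes called or up to 4 with the highest mean CPM over the lineage. Promoters come from RefSeq and searches ran in Python 3.11.15. A count of 0 allows up to 3 counts, for counting error only. DEsingle, the authors' test over cells, was left out.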

Additional observations from a re-analysis of the deposited data

Results flagged for a closer look

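Each factor's 4 libraries at each stage and tissue made 54 sets, in 3 of which the highest or lowest library stood apart by more than Dixon's 95% critical value; chance gives about 1 in 20 such sets. Nkx6-2 in PFC OPC was 1.30 CPM in WT replicate 2, from 1 UMI, and 0 in the other libraries. Nkx6-2 in striatal newly formed cells was 5.46 CPM in Setd1a+/- replicate 1, from 1 UMI, against 21.2, 22.7 and 22.95 in the others. Sox10 in striatal mature oligodendrocytes was 227 CPM in Setd1a+/- replicate 2, which held 67 such cells, against 187, 188 and 193 in the others.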

How the results depend on the processing

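None of the 9 factors was called under any of the 93 alternatives run for their counts. The 10 estimates with an unadjusted p under 0.05 kept their direction in all 118 alternatives. They were picked by that p from the same libraries that the alternatives reuse. A kept direction was therefore likely beforehand and is no independent support. Counts over all genes moved more. Between genotypes over the lineage stages, 0 calls became 1 in the PFC with DESeq2, and without the filter 26 in the PFC and 26 in the striatum. Leaving out 1 library gave 5 (PFC Setd1a+/- replicate 1) to 21 (PFC WT replicate 2), with 13 without PFC WT replicate 1 and 17 without Setd1a+/- replicate 2, and in the striatum 13 (WT replicate 2) to 94 (Setd1a+/- replicate 1), with 25 without WT replicate 1 and 34 without Setd1a+/- replicate 2. Between tissues, 12 calls in OPC became 33 with DESeq2, 351 without the filter, 4 with cells thinned, 1 with WT libraries alone and 6 (without PFC WT replicate 1) to 130 (without PFC WT replicate 2), with 36 and 20 without PFC Setd1a+/- replicates 1 and 2. In newly formed cells 2 became 4, 71, 4 and 1 in the same order, and 0 (without PFC WT or Setd1a+/- replicate 1, striatal WT replicate 1 or striatal Setd1a+/- replicate 2) to 21 (without PFC Setd1a+/- replicate 2), with 9 without PFC WT replicate 2 and 1 without striatal WT replicate 2. In mature cells 187 became 743 without the filter, 92 thinned, 40 with WT libraries alone and 50 (without striatal WT replicate 2) to 293 (without PFC Setd1a+/- replicate 2), with 76 without PFC WT replicate 1, 69 without striatal WT replicate 1 and 59 without striatal Setd1a+/- replicate 1. For the tissue by genotype term 0 became 7 without the filter and 0 to 1 with a library left out. In other cell types 4 became 121 without the filter, 0 without the top 5% of cells and 17 to 308 (without striatal Setd1a+/- replicate 1). The cause was not tested for any of these.

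With the replicate block, in which same-numbered libraries are pairs, calls over all genes were 6 in the PFC and 15 in the striatum between genotypes, 77, 14 and 368 between tissues in OPC, newly formed and mature cells, 1 for the tissue by genotype term, where the replicate number was nested in tissue (a choice made after seeing the data), and 84 in other cell types. It changed no call of a factor. Of 252 alternatives for the 36 stage ratios, 9 moved a ratio by more than 1 SD, 7 of them with cells thinned to 1000 UMIs. With few cells of newly formed oligodendrocytes per library and 2 libraries per genotype, depth and number limit what could be detected.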
